A study of Mus musculus with 6 samples.

Results

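A group of 10 genes of the ubiquitin system of skeletal muscle were followed in the tibialis anterior (TA) muscle of old mice, chosen by symbol from all 45777 genes of the count table. Of these 10 genes, 6 are ubiquitin ligases that are linked to muscle wasting and are called atrogenes here: Trim63 (MuRF-1), Fbxo32 (atrogin-1), Fbxo30 (MUSA1), Fbxo21 (SMART), Ubr2 and Asb2. The other 4, called comparators here, are paralogs or relatives that do not count as atrogenes: Trim54 (MuRF-3), Trim55 (MuRF-2), Fbxo31 and Fbxo40. All 10 genes passed the filter on low counts, with between 493 and 92850 raw counts in each library. RNA-Seq was carried out on 3 male C57BL/6J mice given vehicle and 3 given BML-260, a rhodanine-based small molecule used in the study to inhibit the phosphatase DUSP22, at 5 mg/kg by daily intraperitoneal injection for 1 month. The labels give the age of all 6 mice as 24 months, and the study's text gives higher ages in places. Whole muscle was used, so that fewer cells of a type and less RNA per cell cannot be told apart.

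A ubiquitin ligase (E3) selects the protein to which ubiquitin is attached, and a chain of ubiquitin marks that protein for the proteasome. MuRF-1 and atrogin-1 are the best known ligases of muscle wasting: their transcripts rise in fasting, denervation, disuse and glucocorticoid treatment, largely through FOXO transcription factors. MuRF proteins are RING-type ligases that sit on the sarcomere, F-box proteins are the substrate receptors of SCF complexes built on Cul1, and Asb2 is a SOCS-box receptor that works with Cul5. The study asks if DUSP22 inhibition lowers the FOXO3a program. Here the atrogenes are set beside their close relatives, to describe the levels of these ligase transcripts in each group.

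The MuRF genes are separate loci on the mouse genome, in RefSeq coordinates of GRCm38.p6, the assembly behind the mm10 build that the submitters name. Trim63 lies on chromosome 4 from 134315120 to 134329629, Trim54 on chromosome 5 from 31116612 to 31137626, and Trim55 on chromosome 3 from 19644344 to 19692584. Their coding sequences in GENCODE M21 were aligned, because reads that fit more than 1 paralog could be counted for the wrong gene. Trim63 and Trim54 had the same base at 758 of 1049 aligned positions (72.3%), against 69.7% for Trim63 and Trim55 and 59.9% for the unrelated pair Trim63 and Fbxo32. This share did not by itself tell relatives from other pairs. It was 60.3% for Fbxo30 and Fbxo40 and 69.6% for Fbxo32 and Fbxo40, counted over positions without a gap. The longest identical run shared by Trim63 and Trim54 was 28 bases, shown here because it is the stretch at which reads of these genes are hardest to tell apart.
Trim63/Trim54: aacatcattgacatctacaagcaggagt
No stretch of 50 bases was shared between the coding sequences of any MuRF pair, of Fbxo30 and Fbxo40, or of Fbxo32 and its paralog Fbxo25. An antisense gene, Gm15469, overlaps 26.6% of the exonic bases of Trim54, and another, Gm15943, overlaps 2.67% of those of Fbxo32. Whether reads were counted by strand is not given in the sources used here.

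The bases before the start sites of Trim63 and Trim54 are shown because the paralogs differed in expression between libraries, as described below. RefSeq windows from 250 bases before to 50 bases after the start were searched on both strands for the FOXO element GTAAACA, the E-box CANNTG (the letters that myogenic factors bind) and the glucocorticoid response element, written as AGAACA and TGTTCT with any 3 bases between them. The 250 bases before each start are printed 5′ to 3′ along the gene's strand, with matches in capitals.
Trim63, chr4:134314870-134315119, plus strand: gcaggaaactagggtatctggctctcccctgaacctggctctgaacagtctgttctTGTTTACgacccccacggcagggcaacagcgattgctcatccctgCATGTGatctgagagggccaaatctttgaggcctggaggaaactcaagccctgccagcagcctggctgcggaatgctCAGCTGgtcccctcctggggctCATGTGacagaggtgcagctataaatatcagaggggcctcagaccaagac
Trim54, chr5:31116362-31116611, plus strand: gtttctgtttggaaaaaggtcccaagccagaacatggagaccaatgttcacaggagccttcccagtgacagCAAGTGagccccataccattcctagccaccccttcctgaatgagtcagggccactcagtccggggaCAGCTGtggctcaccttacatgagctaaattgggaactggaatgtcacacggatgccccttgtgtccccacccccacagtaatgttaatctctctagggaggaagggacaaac
The FOXO element matched at 1 place before Trim63, as its reverse complement TGTTTAC starting 194 bases before the start site, and 3 E-boxes matched. Before Trim54 there were 2 E-boxes and no match to the FOXO element. Among 32851 RefSeq windows of mouse genes, 3.65% held the FOXO element, 72.3% an E-box and 0.00913% the glucocorticoid element. Windows were found for 8 of the 10 genes, all but Fbxo32 and Trim55. Of these 8 genes, only Trim63 held the FOXO letters, and none held the glucocorticoid letters in full. The printed Trim63 bases tgaacagtctgttct, just before its FOXO match, differ from the glucocorticoid letters at their first base only. Only exact matches were searched for. A match of letters is a description of the window and not a binding site.

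The libraries held between 39522890 and 56998875 counts. Vehicle replicate 3 stood apart, with Pearson correlations of log2 CPM between 0.940 and 0.948 with the other libraries, against 0.972 to 0.985 among the other 5. The 10 genes took up 0.424% of the counts of vehicle replicate 3 and between 0.179% and 0.251% of those of the other libraries. Results are therefore given with and without it.

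Levels were compared between genes in TPM, which the authors scaled for transcript length and library size. In vehicle-treated mice the highest mean level was that of Trim63, with 500.3 ± 505 TPM (SD, n = 3), followed by Asb2 with 286 ± 80.0 TPM, Fbxo32 with 238.5 ± 219 TPM (n = 3), Trim54 with 172 ± 32.9 TPM and Fbxo40 with 159 ± 13.2 TPM. The first 5 genes overlapped with their neighbours in this order, and Trim63 was above Asb2 in 1 of the 3 vehicle libraries. A gap followed, since the lowest Fbxo40 value (144 TPM) was above the highest Fbxo31 value (69.5 TPM). Fbxo31, Ubr2, Trim55 and Fbxo30 had means between 13.5 and 44.3 TPM with overlap between neighbours, and Fbxo21 was the lowest with 6.04 ± 1.03 TPM (n = 3). With BML-260, Asb2 was the highest with 352 ± 14.8 TPM (SD, n = 3) and did not overlap with the next gene. Trim63 (178 ± 17.7 TPM), Trim54 (175 ± 23.8 TPM) and Fbxo40 (169 ± 31.2 TPM) overlapped with each other, and Fbxo32 stood below them with 91.2 ± 7.01 TPM (n = 3).

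Trim63 and Fbxo32 shared the same profile, with a single high library. The expression of Trim63, in CPM (read counts scaled to library size with TMM factors), was 277, 213 and 887 in vehicle replicates 1, 2 and 3 and 199, 200 and 217 in BML-260 replicates 1, 2 and 3. Vehicle replicate 3 was 3.62 times the mean of the other vehicle libraries, and vehicle replicate 2 lay below BML-260 replicate 3, so that the groups overlapped. The log2 fold change of Trim63, BML-260 over vehicle, was -1.16 (standard error, SE, 0.48, adjusted p = 0.788, edgeR quasi-likelihood test with Benjamini-Hochberg adjustment over 16188 genes). Fbxo32 had 549.6 CPM, 424 CPM and 1480 CPM in the vehicle libraries and 391 CPM, 401 CPM and 375 CPM in the BML-260 libraries. Each BML-260 library was below each vehicle library in CPM, although vehicle replicate 2 was near the BML-260 values. In TPM the groups overlapped, with 95.2 TPM in vehicle replicate 2 and 98.4 TPM in BML-260 replicate 2. The log2 fold change of Fbxo32 was -1.07 (SE 0.43, adjusted p = 0.788 in the same edgeR test). When vehicle replicate 3 was left out, these log2 fold changes were -0.25 (SE 0.15) for Trim63 and -0.32 (SE 0.15) for Fbxo32, and neither gene was then called by the threshold described below. The spread of both genes was much wider with vehicle, where the coefficient of variation was 81.0% for Trim63 and 70.5% for Fbxo32, than with BML-260, where it was 4.92% and 3.34%.

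Fbxo30, the receptor of the SCF complex known as MUSA1, which is held down by BMP signaling, had another profile. Its expression was 43.8, 63.1 and 58.5 CPM in vehicle replicates 1, 2 and 3 and 37.2, 38.8 and 35.2 CPM with BML-260. In CPM the highest library was vehicle replicate 2, and the groups did not overlap. Vehicle replicate 3 was 1.09 times the mean of the other vehicle libraries in CPM. In TPM vehicle replicate 3 was the highest library, with 9.71, 13.3 and 17.4 TPM in vehicle replicates 1, 2 and 3. The BML-260 libraries had 8.36, 9.54 and 8.49 TPM, and the groups did not overlap there either. The log2 fold change of Fbxo30 was -0.57 (SE 0.16, adjusted p = 0.699 in the edgeR quasi-likelihood test with Benjamini-Hochberg adjustment). It was -0.52 (SE 0.16) without vehicle replicate 3 and between -0.71 and -0.47 with any 1 library left out.

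**Figure D1:**
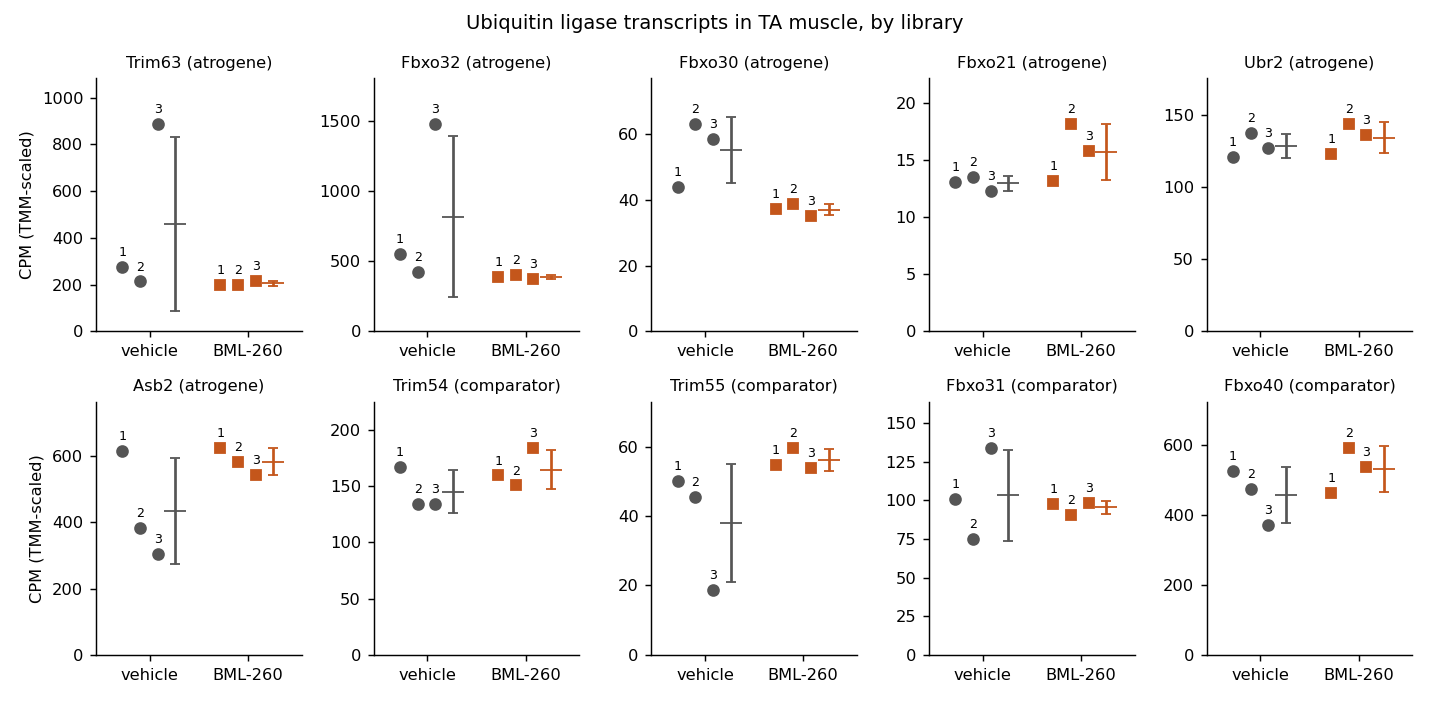
Expression of the 10 ligase genes in each library. Each point is a library (CPM after TMM scaling, linear axis from 0), numbered by replicate, with vehicle in grey and BML-260 in orange, and the bars give the mean and SD of 3 libraries. Vehicle replicate 3 is the highest library for Trim63 (887 CPM) and Fbxo32 (1480 CPM) and the lowest for Trim55 (18.6 CPM), whereas Fbxo30 is highest in vehicle replicate 2 (63.1 CPM).

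The other 3 atrogenes had higher means with BML-260 than with vehicle, and none of them was called. Fbxo21, an F-box receptor of low expression, had 13.1, 13.6 and 12.3 CPM with vehicle and 13.2, 18.2 and 15.8 CPM with BML-260. These groups overlapped, and the log2 fold change of Fbxo21 was 0.28 (SE 0.16, adjusted p = 0.788 by edgeR). Ubr2, a RING ligase of the N-degron pathway, had 121, 137.5 and 127 CPM with vehicle and 123, 144 and 136 CPM with BML-260. Its libraries lay within a narrow range in both groups, with a log2 fold change of 0.06 (SE 0.14, adjusted p = 0.913 by edgeR), and the sign of this value turned on the TPM scale (-0.08). Asb2, whose muscle form targets filamin for degradation, had 615, 382.5 and 306 CPM with vehicle and 625, 582 and 544 CPM with BML-260. Vehicle replicates 2 and 3 were below all BML-260 libraries while vehicle replicate 1 was within their range, and the log2 fold change of Asb2 was 0.43 (SE 0.26, adjusted p = 0.788 by edgeR). Without vehicle replicate 1 it was 0.76 (SE 0.21, adjusted p = 0.268 by edgeR), and without vehicle replicate 3 it was 0.23 (SE 0.20).

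Among the comparators, Trim55 had the reverse of the Trim63 profile. Trim55 encodes MuRF-2, which binds titin and microtubules in the sarcomere. It had 50.1, 45.5 and 18.6 CPM with vehicle and 54.9, 59.7 and 53.9 CPM with BML-260. All BML-260 libraries were above all vehicle libraries, and vehicle replicate 3 was 0.389 times the mean of the other vehicle libraries. The log2 fold change of Trim55 was 0.56 (SE 0.32, adjusted p = 0.788 by edgeR), and it was 0.23 (SE 0.13) without vehicle replicate 3. Without vehicle replicate 1 it was 0.81 (SE 0.34, adjusted p = 0.363 by edgeR).

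Trim54, or MuRF-3, which stabilizes microtubules, had 167, 134 and 134 CPM with vehicle and 159.6, 151 and 184 CPM with BML-260, with overlap and a log2 fold change of 0.18 (SE 0.16). Fbxo40 is a muscle F-box protein that targets Irs1 in insulin-like growth factor signaling. It had between 370.0 and 525 CPM with vehicle (median 475 CPM) and between 463 and 592 CPM with BML-260 (median 537 CPM), and its log2 fold change was 0.22 (SE 0.20). Fbxo31, an F-box receptor for cyclin D1, had 101, 74.9 and 134 CPM with vehicle, spread around the 97.5, 90.4 and 98.5 CPM with BML-260. Its log2 fold change was -0.11 (SE 0.21), and 0.12 (SE 0.16) without vehicle replicate 3. The adjusted p-values of Trim54, Fbxo40 and Fbxo31 from the edgeR test were 0.802, 0.802 and 0.891.

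The legend drawn in the study's volcano plot marks genes by an unadjusted p under 0.05 together with a fold of 1.3 or more. With this threshold set on the edgeR test, 3 of the 6 atrogenes (Trim63, Fbxo32 and Fbxo30) were lower with BML-260. Of the 4 comparators 0 passed. Over all 16188 tested genes this threshold called 4.86% as lower and 0.896% as higher, 5.75% in all. The same 3 of the 10 genes had an unadjusted p under 0.05, as had 5.97% of all genes. The study used DESeq2 for its differential analysis. With the DESeq2 Wald test 2 of the 10 genes (Fbxo32 and Fbxo30) passed the threshold, where 6.31% of all genes did. Trim63 did not pass there, with an unadjusted p of 0.0873. After Benjamini-Hochberg adjustment by edgeR 0 of the 10 genes passed, as did 0 of all tested genes (0%), beside 966 tested genes with an unadjusted p under 0.05, and DESeq2's Wald test also gave 0 of the 10 genes an adjusted p under 0.05, against 95 of all genes. Without vehicle replicate 3, only Fbxo30 of the 10 genes passed the threshold of the volcano plot, where 3.98% of all genes did. Fbxo30 was also the only gene of the 10 to pass with BML-260 replicate 1, 2 or 3 left out, where 4.19%, 3% and 3.91% of all genes did. But there the log2 fold changes of Trim63 (-1.14, -1.14 and -1.20) and Fbxo32 (-1.07, -1.09 and -1.05) were near those from all libraries, while their unadjusted p lay above 0.05. Without vehicle replicate 1, 5 of the 10 genes passed (Asb2 and Trim55 higher with BML-260), where 13.3% of all genes did. Vehicle and BML-260 libraries were fully separate in CPM for 3 of the 10 genes, against 12.1% of all tested genes. Fbxo32 and Fbxo30 were separate and lower with BML-260 (2 of 10, against 6.91% of all genes), and Trim55 was separate and higher (1 of 10, against 5.23%). In TPM 2 of the 10 genes were separate, against 9.62% of all genes, and Fbxo32 overlapped. The log2 fold change was below 0 for 4 of the 10 genes and for 50.5% of all genes. In CPM, vehicle replicate 3 was the highest library for 3 of the 10 genes (Trim63, Fbxo32 and Fbxo31), where it was so for 31.4% of all genes. It was the lowest for 5 (Fbxo21, Asb2, Trim54, Trim55 and Fbxo40), where it was so for 32.1%. For Trim54 it was nearly level with vehicle replicate 2. In TPM it was the highest library also for Fbxo30 and Ubr2, and the lowest for Trim55 only.

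**Figure D2:**
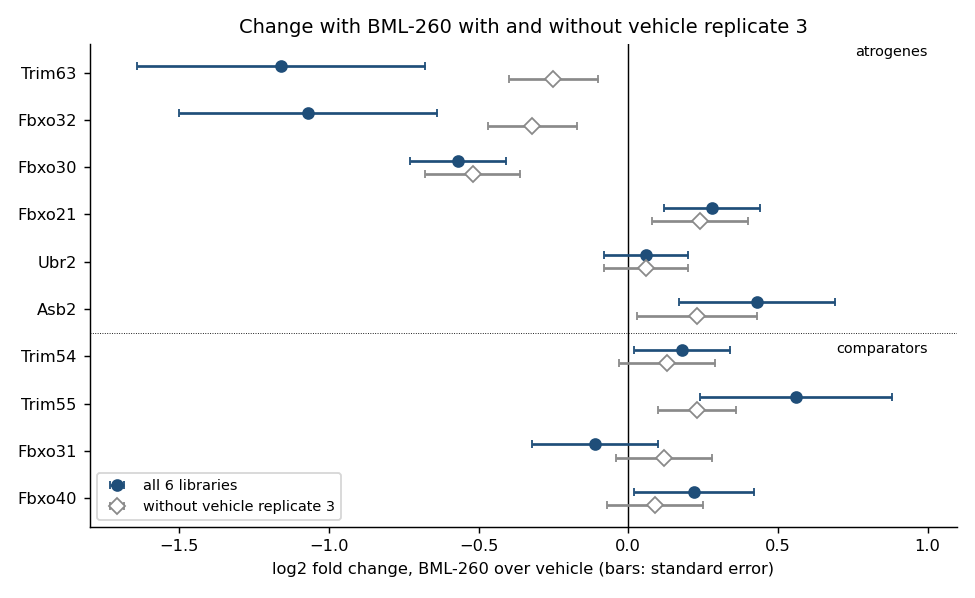
Log2 fold change of BML-260 over vehicle for each gene (horizontal axis, bars show the SE from edgeR), with all 6 libraries (filled circles) and without vehicle replicate 3 (open diamonds). Without that library Trim63 moves from -1.16 to -0.25 and Fbxo32 from -1.07 to -0.32, and Fbxo30 from -0.57 to -0.52.

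The median log2 fold change was -0.26 for the 6 atrogenes and 0.20 for the 4 comparators, beside -0.00 for all tested genes. These medians were -0.10 and 0.13 when vehicle replicate 3 was left out. The mean log2 CPM of the atrogenes minus that of the comparators was -0.09, 0.06 and 0.79 in vehicle replicates 1, 2 and 3 and -0.24, -0.19 and -0.31 in the BML-260 libraries. All BML-260 libraries lay below all vehicle libraries on this difference, which had a mean of 0.25 ± 0.47 with vehicle and -0.25 ± 0.06 with BML-260 (SD, n = 3). The change in the difference was -0.50 on the log2 scale, and -0.23 without vehicle replicate 3. With all libraries it came from both sides in CPM. The atrogene mean was lower by 0.24 with BML-260 (7.20 against 6.95), and the comparator mean was higher by 0.26 (6.94 against 7.20). The atrogene mean was 7.10, 6.98 and 7.51 in vehicle replicates 1, 2 and 3 and 6.90, 7.02 and 6.94 with BML-260. The comparator mean was 7.18, 6.92 and 6.72 with vehicle and 7.14, 7.21 and 7.24 with BML-260. Each of these means overlapped between the groups. On log2 TPM with a pseudocount of 1 the change in the difference was -0.46. The median log2 fold change on that scale was -0.30 for the atrogenes and 0.06 for the comparators, beside -0.09 for all genes. These values were not tested, since the genes were chosen with results of these data known.

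Ratios within a library do not depend on how libraries are scaled to each other. Trim63 made up 53.7%, 52.1% and 83.3% of the summed TPM of the 3 MuRF genes in the vehicle libraries and 46.0%, 46.9% and 45.2% in the BML-260 libraries. Trim63 was therefore the larger share of MuRF transcripts in every vehicle library and less than the sum of Trim54 and Trim55 in every BML-260 library. The TPM ratio of Trim63 to Trim54 was 1.35, 1.3 and 5.39 with vehicle and 1.02, 1.08 and 0.96 with BML-260. The ratio of Trim63 to Trim55 was 8.10, 6.72 and 66.7 with vehicle and 5.27, 4.83 and 5.79 with BML-260. For the F-box genes, the ratio of Fbxo32 to Fbxo40 was 0.774, 0.661 and 2.96 with vehicle and 0.623, 0.500 and 0.517 with BML-260. Each of these 3 ratios was lower in all BML-260 libraries than in all vehicle libraries. The ratio of Fbxo30 to Fbxo40 was 0.0578, 0.0921 and 0.105 with vehicle and overlapped with 0.0617, 0.0484 and 0.0483 with BML-260. Trim63 and Fbxo32 moved together, with a TPM ratio between 1.84 and 2.21 in the 6 libraries.

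**Figure D3:**
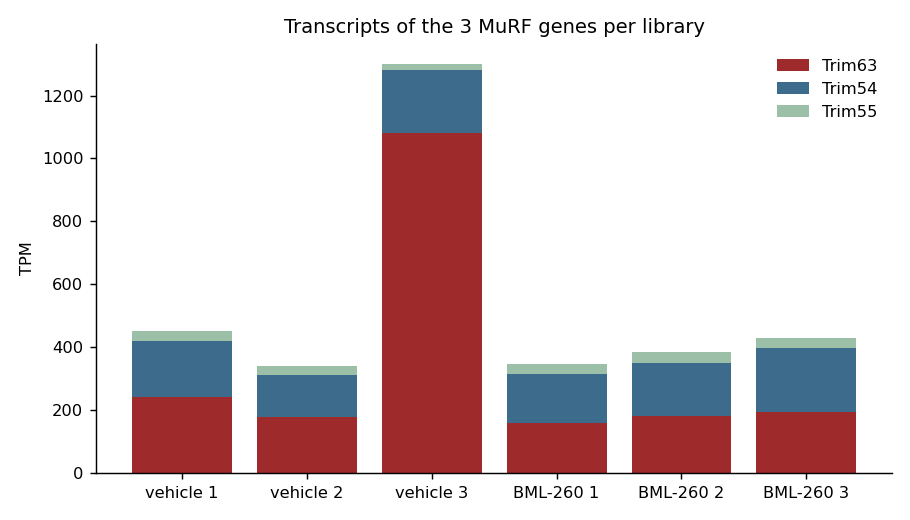
Stacked TPM of Trim63, Trim54 and Trim55 in each library (vertical axis in TPM, from 0). The sum reaches 1299 TPM in vehicle replicate 3 and lies between 339 and 451 TPM in the other 5 libraries.

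Across the 6 libraries the Pearson correlation of log2 CPM was 0.99 for Trim63 with Fbxo32, -0.97 for Trim63 with Trim55 and 0.54 for Trim63 with Fbxo30. These values were 0.91, -0.42 and 0.16 in the 5 libraries without vehicle replicate 3. Fbxo30 ran against Trim54 (-0.86, and -0.81 without vehicle replicate 3) and Asb2 (-0.86, and -0.85 without that library). The libraries share their scaling, and 6 points in 2 groups only describe the pattern.

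Markers of the tissue and of other cells were read in the same libraries. The myofiber list (Ckm, Acta1, Tnnt3, Actn3, Myh4, Pvalb and Atp2a1) was abundant in all libraries and summed to 112500, 107300 and 64770 CPM with vehicle and to between 108000 and 134000 CPM with BML-260. Of the 4 cardiac genes, Myl7 was at 0 counts in all 6 libraries, Nppa and Tnni3 were at or below 0.204 CPM, and Myh6 was detected in each, at 0.698 to 4.99 CPM. Vehicle replicate 3, in which Trim63 and Fbxo32 were highest, had the lowest myofiber sum and the highest sums of the macrophage (171 CPM), erythroid (2344 CPM), neutrophil (167 CPM), adipocyte (75.8 CPM), slow fiber (234 CPM), Schwann cell (62.7 CPM) and cardiac (5.25 CPM) lists. With BML-260 the macrophage list summed to between 48.6 and 52.7 CPM, with 5 of its 6 genes called as lower, and vehicle replicates 1 and 2 had 71.8 and 71.5 CPM. The neutrophil list had 3 of 3 tested genes called as lower, and its defining gene Ly6g was at 0 in all libraries but vehicle replicate 3. The erythroid list had 3 of 5 genes called as lower, the slow fiber list 2 of 6, the adipocyte list 1 of 3 tested, and the fibroblast list, with sums of 508 to 845 CPM against 474 to 819 CPM, 1 of 5. The endothelial, Schwann cell and cardiac lists had 0 called. Over all tested genes 4.86% were called as lower. Without vehicle replicate 3 the number called as lower was 4 of 6 for the macrophage, 3 of 3 for the neutrophil and 2 of 5 for the erythroid list. It was 1 of 5 for the fibroblast list (Col3a1) and 1 of 6 for the slow fiber list (Atp2a2), where 2.92% of all genes were called as lower. In that setting 3 of the 6 slow fiber genes and 2 of the 4 Schwann cell genes were called as higher. The part of these cells in the levels of the ligases was not tested.

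As a sum, genes of denervated fibers were high in the same vehicle libraries as Fbxo30. The list (Chrna1, Chrnd, Chrng, Chrnb1, Myog, Ncam1, Runx1 and Gadd45a) summed to 117, 276 and 251 CPM in vehicle replicates 1, 2 and 3 and to 66.0, 77.6 and 82.4 CPM with BML-260. Vehicle replicates 2 and 3 were the high libraries for this sum, as they were for Fbxo30. Gadd45a was the largest part of the sum there, with 106 and 109 CPM. Single genes did not all follow. Chrng had 0.308, 1.4 and 0.287 CPM in vehicle replicates 1, 2 and 3, and Chrnd had 1.29, 5.42 and 1.69 CPM, both high in vehicle replicate 2 alone. Myog was highest in vehicle replicate 3, with 7.12, 10 and 28.2 CPM. All 8 genes were lower with BML-260 and 6 were called, where 4.86% of all tested genes were called as lower. Without vehicle replicate 3 again all 8 were lower and 7 were called, where 2.92% of all genes were called as lower. The list was chosen with earlier results of these data known, and Runx1 and Gadd45a were among the genes with the smallest p in the edgeR test. Whether the state of innervation bears on the ligases was not tested.

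**Figure D4:**
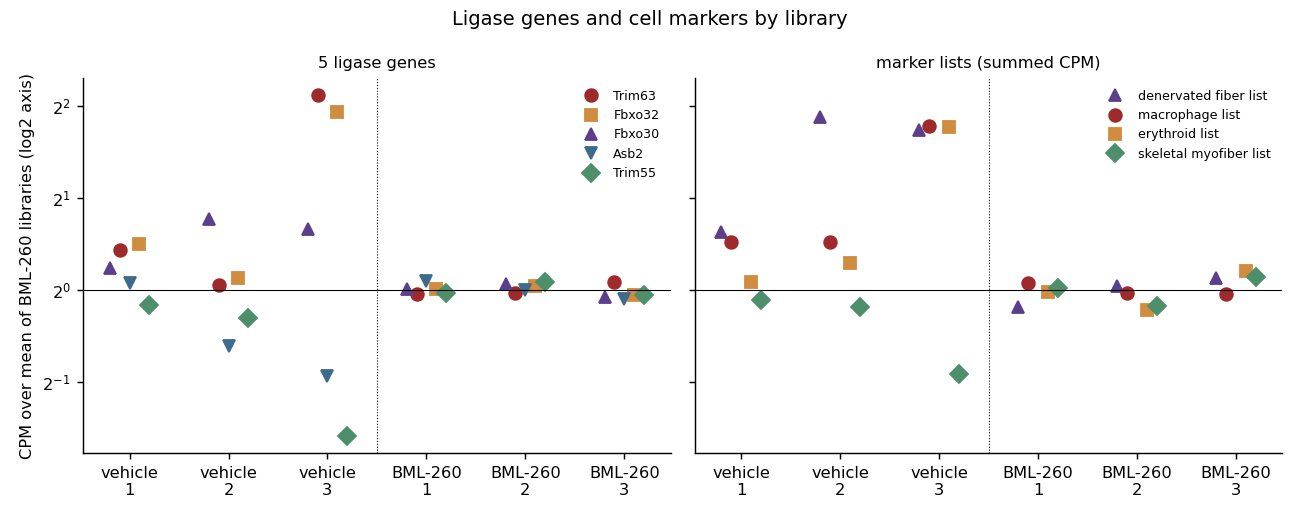
Expression of 5 ligase genes (left) and summed expression of 4 marker lists (right) in each library, divided by the mean of the BML-260 libraries, on a log2 axis with 1 point for each library. Trim63 and Fbxo32 are highest in vehicle replicate 3, where Trim55 and the myofiber list are lowest, and Fbxo30 and the denervated fiber list are highest in vehicle replicates 2 and 3.

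Transcription factors that act on Trim63 or Fbxo32 had a median log2 fold change of -0.33 over 13 genes, of which 3 were called as lower and 0 as higher. Over all tested genes 4.86% were called as lower and 0.896% as higher. Myog, the factor that activates both genes in denervated muscle, had 7.12, 10 and 28.2 CPM with vehicle and 2.91, 3.39 and 5.86 CPM with BML-260. The groups did not overlap, and its log2 fold change was -1.91 (SE 0.51, adjusted p = 0.649 by edgeR), and -1.08 (SE 0.28) without vehicle replicate 3. Foxo1, a FOXO factor of muscle wasting, had 24.2, 37.3 and 67.0 CPM with vehicle and 18.6, 27.2 and 22.0 CPM with BML-260. It overlapped between the groups and had a log2 fold change of -0.92 (SE 0.34), and one of -0.44 without vehicle replicate 3, where it was no longer called. Among the other FOXO genes, which were chosen after their values were seen, Foxo3 was not called, with a log2 fold change of -0.33 (SE 0.30), and one of 0.12 (SE 0.15) without vehicle replicate 3. Foxo4 was also not called and had a log2 fold change of 0.24 (SE 0.14), with all BML-260 libraries above all vehicle libraries. Myod1, a myogenic factor and a target of atrogin-1, had a log2 fold change of -0.47 (SE 0.18), and -0.52 without vehicle replicate 3. The adjusted p of Foxo1 and Myod1 was 0.788 from edgeR. Without vehicle replicate 3 the median over the 13 genes was -0.11, and the genes called were Myog, Myod1 and Hdac4.

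Lists of the general machinery that the ligases use, and of related ligases, had few genes called. Of 17 genes for ubiquitin and its activating and conjugating enzymes, 1 was called as lower, with a median log2 fold change of 0.06. That gene was Rps27a, which encodes ubiquitin fused to a ribosomal protein, with 242 ± 71.1 CPM with vehicle and 166 ± 20.5 CPM with BML-260 (SD, n = 3) and a log2 fold change of -0.54, and of -0.27 without vehicle replicate 3, where it was not called. Of the 10 measured partners of F-box and SOCS-box proteins, 0 were called, and the largest log2 fold changes were those of Cand2 (0.33, SE 0.28), which exchanges F-box receptors, and Eloc (0.19, SE 0.15), the elongin that joins SOCS-box proteins to the cullin. Cand2 was at 0.05 and Eloc at 0.13 when vehicle replicate 3 was left out. Of 14 other ligases linked to atrophy 0 were called, with Wwp1 at 0.33 and Siah1a at -0.26 as the largest log2 fold changes. Leaving out vehicle replicate 3, in which Siah1a had 33.7 CPM against 16.2 to 20.2 CPM in the other libraries, turned the sign of Siah1a (0.16) and brought Wwp1 to 0.17. Of 10 deubiquitinases Uchl1 was called, with 3.79 ± 1.56 CPM with vehicle and 1.87 ± 0.556 CPM with BML-260 (SD, n = 3) and a log2 fold change of -1.01 (SE 0.37, adjusted p = 0.788 by edgeR). Of the 10 muscle Asb genes 0 were called, with Asb10 (0.62, SE 0.39) and Asb15 (0.39, SE 0.29) as the largest log2 fold changes, and with values of 0.24 and 0.13 when vehicle replicate 3 was left out. Transcripts of 14 proteins known as targets of these ligases were also read, and that of Myod1 alone was called. Among these targets are myosin heavy and light chains, myosin binding proteins, desmin, Eif3f and Irs1. The data hold RNA only and not the levels of these proteins.

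The genes outside the 10 whose log2 CPM followed Trim63 most closely over the 6 libraries were Slc39a14, a zinc transporter (Pearson r = 0.9975), LOC105244208, which the files describe as a ribosomal protein S6 gene (0.9970), Serpina3n, a serine protease inhibitor (0.9961), Ctsl, the lysosomal protease cathepsin L (0.9955), and Actn1 (0.9947). For Fbxo32 they were Slc39a14 (0.9973), Serpina3n (0.9967), LOC105244208 (0.9966), Gm5345 (0.9957) and Krt80 (0.9927). Slc39a14 had 17.3, 13.8 and 72.5 CPM with vehicle and 11.8, 12.3 and 12.1 CPM with BML-260, and Ctsl had 109, 90.7 and 244 CPM with vehicle and 79.0, 87.3 and 93.8 CPM with BML-260. Serpina3n reached 48.5 CPM in vehicle replicate 3 and lay between 2.05 and 4.68 CPM in the other libraries. All of the genes with values given here were highest in vehicle replicate 3, as Trim63 and Fbxo32 were, which follows from how they were chosen. These correlations lean on that library and are not given without it.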

How the data were processed

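The authors sequenced total RNA from the TA muscle of 3 mice for each group, in libraries made with a stranded total RNA kit. The submitters' processing notes name StringTie 2.1.3b, Bowtie2 2.3.4.1, Trimmomatic 0.38 and HISAT2 2.1.0, with the mm10 build. The rules for strand and multi-mapped reads are not given in the sources used here. The authors deposited raw read counts for 45777 genes in 1 table and TPM values of 16800 genes for each library, already scaled for length and depth. The libraries held between 39522890 and 56998875 counts. Gene identifiers joined the tables, and samples were grouped by their titles.

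The counts were fitted with edgeR 4.0.16 under R 4.3.3. Of all genes, filterByExpr kept 16188, TMM scaled the libraries, and the groups were compared by the quasi-likelihood test of edgeR, its p-values being adjusted by Benjamini and Hochberg's method over all kept genes. The standard error is the log2 fold change divided by the square root of F. For log2 CPM a prior count of 2 was added. Alternatives used DESeq2 1.42.0 and limma 3.58.1. The tests were tested on simulated data. With 3 libraries in each group an exact permutation test cannot give a 2-sided p under 0.1, so none is given. Figures were drawn with matplotlib 3.10.9, and sequences were aligned with Biopython 1.88.

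The TPM values of vehicle replicate 3 were the highest relative to its counts, with 0.986 CPM (before TMM scaling) for each TPM of Trim63 against 1.07 to 1.18 in the other libraries, so that TPM and counts differ in scale between libraries.

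The 10 genes and the gene lists were chosen with earlier results of these data known. Of the fixed lists, genes past the threshold of the volcano plot are named, or otherwise the 2 with the largest change, together with the 5 genes most like Trim63 and Fbxo32. Other genes named were chosen after their values were seen. Protein sequences were not used here, and 1 gene of the denervated fiber list is not reported here and was left out of its sums and counts.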

Additional observations from a re-analysis of the deposited data

How the results depend on the processing

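Of 17 alternatives to the edgeR test, each giving a value for all 10 genes, 142 values kept their direction and their side of the threshold of the volcano plot, 21 were no longer past it, 2 passed it newly and 5 turned in sign. Fbxo30 was called in 16 of the 17 alternatives, Fbxo32 in 8, Trim63 in 6, and Asb2 and Trim55 in 1 each. Adjusted p-values ranged from 0.224 to 0.984 for Fbxo30, from 0.291 to 1 for Fbxo32, from 0.312 to 1 for Trim63, from 0.268 to 1 for Asb2 and from 0.363 to 1 for Trim55. Adjusted over all genes, 0 of the 10 genes passed under any of these alternatives. The sign of Ubr2 turned with limma on TPM (-0.08 with a pseudocount of 1, with 0.1, and for genes with a mean TPM of at least 1), where the median of all genes was shifted by -0.09, -0.14 and -0.11. The log2 fold change of Fbxo31 lay between -0.30 and 0.12 with 1 library left out, turning in sign without vehicle replicate 3, and it turned with limma voom and sample quality weights (0.14). The number of the 10 genes past the threshold was 3 in the edgeR test (share of all genes 5.75%) and 2 with DESeq2 (6.31%) and robust edgeR (5.52%). It was 1 with the replicate block (6.53%), voom (5.5%), TPM with a pseudocount of 0.1 (4.12%) and TPM of at least 1 (3.34%). It was 0 with TPM and a pseudocount of 1 (2.65%), and between 1 and 5 with 1 library left out (3% to 13.3%). The number whose groups did not overlap was between 3 and 6 with 1 library left out, where the share of all genes was between 18% and 32.5%, against 12.1% with all libraries. In TPM it was 2, where the share was 9.62%, or 8.88% for TPM of at least 1. Over all genes the number called was 931, and 1416 without a filter, 446 on TPM with a pseudocount of 1, 410 for TPM of at least 1, and between 503 and 2223 with 1 library left out. An adjusted p under 0.05 was given to 95 genes by DESeq2, to 1 gene each without a filter, with at least 10 counts in every library, by voom and by the robust edgeR test, and to between 0 and 9 genes with 1 library left out. The causes were not tested. Vehicle and BML-260 libraries share replicate numbers, but the correlations of their deviations from the group means were 0.16, 0.05 and 0.11 for numbers 1, 2 and 3, so the numbers were not taken as pairs. Each library correlated best with that of its own number. With the replicate block 1057 genes were called, and Trim63 and Fbxo32 had log2 fold changes of -0.85 and -0.84 and were not called.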

Other observations

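The wider Trim, Fbxo and Asb families were counted in the same way. Of 43 tested Trim genes outside the 10, the groups did not overlap for 11, where 12.1% of all tested genes did so, and 2 (Trim14 and Trim2) were called as lower with BML-260, where 4.86% of all genes were. Neither was called without vehicle replicate 3, with log2 fold changes of -0.63 for Trim14 and -0.30 for Trim2. Trim14, an adaptor of antiviral signaling, had 1.85, 1.76 and 1.67 CPM with vehicle and 1.19, 1.05 and 1.27 CPM with BML-260 (log2 fold change -0.59, SE 0.26, adjusted p = 0.788 by edgeR). Trim72 (MG53), a membrane repair protein of muscle, had 125, 133 and 231 CPM with vehicle and 116, 107 and 119 CPM with BML-260, with a log2 fold change of -0.52 (SE 0.24), and of -0.18 without vehicle replicate 3. Of 15 tested Asb genes outside the 10, 13 had a log2 fold change above 0, where 50.5% of all tested genes were below 0. Without vehicle replicate 3 there were again 13 above 0, but the median was 0.08 in place of 0.17, and 0 were called in either case. The groups did not overlap for 1 of these 15 genes. Of 24 tested Fbxo genes outside the 10, 11 were below 0, 13 above 0 and 0 called, and the groups did not overlap for 1.

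The genes whose log2 CPM followed Fbxo30 most closely were looked up after its values were seen. They were Abhd15 (Pearson r = 0.9955), Ugcg (0.9926), Sln (0.9901), Bhlhb9 (0.9897) and Aif1l (0.9887), and none of them was among the 5 genes nearest to Trim63 or Fbxo32. Sln, which encodes sarcolipin, an inhibitor of the calcium pump of the sarcoplasmic reticulum, had 3.96, 69.5 and 25.9 CPM with vehicle and 1.74, 2.94 and 1.24 CPM with BML-260. Its groups did not overlap and its log2 fold change was -4.06 (SE 0.90, adjusted p = 0.598 by edgeR). Abhd15 had 1.13, 6.41 and 5.52 CPM with vehicle and 0.445, 0.491 and 0.238 CPM with BML-260. Ugcg, the enzyme that makes glucosylceramide, had 13.7, 20.8 and 19.7 CPM with vehicle and 10.5, 11.2 and 10.8 CPM with BML-260.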
